A study of Mus musculus with 6 samples.

Results

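The genes described here are the mouse fibroblast growth factor (FGF) ligands, their receptors and the inhibitors and transcription factors that FGF signalling induces as feedback: Fgf genes with a number, Fgfr1 to Fgfr4 and Fgfrl1, Spry1 to Spry4, Spred1 to Spred3, Dusp4 to Dusp7, and Etv4 and Etv5. They were chosen by gene symbol among probe sets that name a single gene, and 40 of the 18193 genes so named on the array matched. The 40 genes had 89 probe sets, and each gene was represented by its brightest probe set on average over the 6 arrays.

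Total RNA of 3 granulosa cell tumors from Smad1/5/8 mutant mice was compared with that of 3 samples of wild-type granulosa cells, 1 array each. The labels give the tumors no treatment, and their strain and age and the way the Smad genes were mutated were not stated in the labels. The wild-type cells were granulosa cells isolated from females of the C57BL/6J;129S5/SvEvBrd background at 21 days of age, 44 to 46 hours after an injection of pregnant mare serum gonadotropin (PMSG), and each sample pooled 2 to 3 females. Smad1, Smad5 and Smad8 are the transcription factors that bone morphogenetic protein receptors activate. Tumor tissue thus stood against isolated, hormone-primed cells, tumor RNA came from stored and frozen tissue, and signals were made with GCOS for tumors and MAS5 for wild-type samples; these contrasts cannot be told apart from the genotype.

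FGF ligands bind receptor tyrosine kinases together with heparan sulfate chains at the cell surface. The receptors act mainly through the RAS and ERK kinase cascade. ERK activity induces Sprouty and Spred proteins, which restrain RAS and RAF, dual-specificity phosphatases (Dusp), which dephosphorylate ERK, and transcription factors of the Etv group, so these transcripts are widely used as a readout of the pathway. In the ovary, FGFs pass between oocytes, granulosa cells and the surrounding stroma, and oocyte-derived Fgf8 acts on cumulus granulosa cells.

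Values are linear signals, scaled on each array to a trimmed mean of 500, and a gene was tested if its signal reached 100 on at least 3 of the 6 arrays. The level of 100 is close to 101, the top reading among control probe sets whose transcripts were not spiked in. The hybridisation controls, which read far higher, are not among these. Of the 40 genes, 19 were tested among 11600 genes with limma on log2(signal + 32), and calls were made where the p-value, adjusted after Benjamini and Hochberg for all 11600, was under 0.05. 8 genes were called higher in tumors (Etv5, Spry1, Fgfr1, Spry4, Spred2, Fgf7, Dusp6 and Fgf11), 3 were called lower (Fgf13, Fgfrl1 and Fgfr4) and 8 were not called. Of all genes tested, 14.5% were called higher and 12.6% lower. The median log2 fold change of the 19 was 0.52, against -0.005 over all genes. Etv5, Spry4, Fgf7 and Fgf11 lay below 100 in all wild-type samples and entered the test through the tumor arrays alone. Fgfr4 entered it through the wild-type arrays alone. These genes had to differ to be tested, so the counts and the median, which include them, are given as a description. In 10 of the 19 genes all 3 tumors lay above all 3 wild-type samples, and in 3 all lay below, against 23.7% and 22.6% of all genes tested. With 3 arrays per group an exact permutation test of a single gene cannot go below p = 0.1, so calls rest on limma's variance pooled across genes. Signals of different genes come from different probes and are not set against each other.

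**Figure D1:**
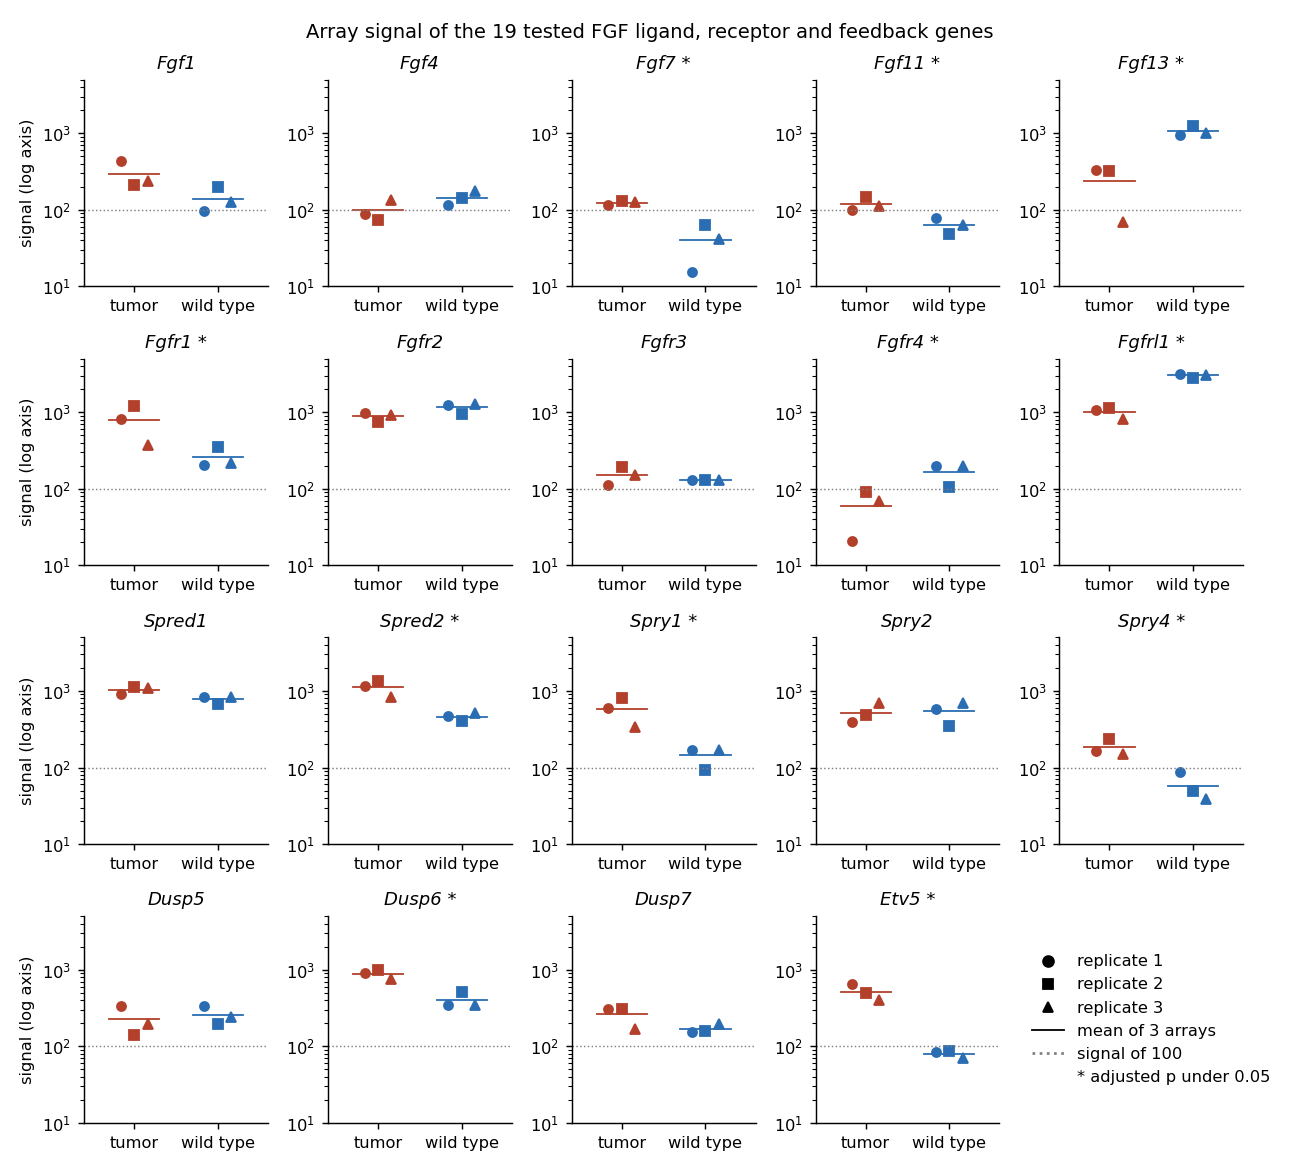
Array signal (log axis, no unit) of each of the 19 tested genes in 3 tumors (left, red) and 3 wild-type samples (right, blue). Symbols mark the replicate number, bars the mean of 3 arrays, the dotted line a signal of 100, and an asterisk an adjusted p under 0.05. Etv5 shows tumors at 398.8 to 658.7 and wild-type samples at 70.5 to 86.5, and Fgfrl1 tumors at 811.2 to 1134 and wild-type samples at 2820 to 3182.

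The tested feedback genes of the pathway are counted here by kind, beside 14.5% higher and 12.6% lower among all genes tested. Etv5 and Spry4 among them had to be higher to be tested. Of 5 tested Sprouty and Spred genes, 3 rose, 0 fell and 2 were not called. Among 3 tested ERK phosphatase genes 1 rose, 0 fell and 2 were not called, and the single tested Etv gene rose. Etv5, an ETS transcription factor of the Pea3 group, read 658.7, 503.3 and 398.8 in tumors and 84.2, 86.5 and 70.5 in wild-type samples. Every tumor was above every wild-type sample, and all wild-type samples lay below 100. The tumors were at least 5.09-fold higher, measured against a wild-type signal set to 100 (limma log2 fold change 2.27, SE 0.20, limma adjusted p = 0.000734). The second passing Etv5 probe set had a log2 fold change of 1.40 and was called too when each of 21001 passing probe sets was tested on its own.

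Spry1 encodes a Sprouty protein, an inhibitor of receptor tyrosine kinase signalling. Its signal was 590.6, 815.3 and 334.1 in tumors, against 169.7, 92.1 and 169.1 in wild-type samples. Tumor replicate 3 was the lowest of the tumors and still above all wild-type samples. The log2 fold change was 1.75 (SE 0.34, limma adjusted p = 0.0108). Spry4, another Sprouty gene, read 166.5, 238 and 150.8 in tumors and 86.6, 49 and 38.6 in wild-type samples. All tumors lay above 100 and all wild-type samples below it, at least 1.81-fold higher in tumors (limma log2 fold change 1.28, SE 0.24, limma adjusted p = 0.0102). Spry2 did not share this pattern. It read 387.7, 486.7 and 691.1 in tumors and 573.9, 352.7 and 696.7 in wild-type samples, and the groups overlapped throughout. Its log2 fold change was -0.04 with a 95% interval from -0.73 to 0.66, and the sign turned when arrays were scaled to their median (0.06). Spry3 was below 100 on all 6 arrays.

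Spred proteins bring the RAS inhibitor neurofibromin to the membrane. Spred2 read 1157, 1340 and 836.7 in tumors and 465.7, 403.6 and 511.9 in wild-type samples, with no overlap. Its log2 fold change was 1.20 (SE 0.20, limma adjusted p = 0.00699). Its other passing probe sets were both dimmer. The brighter of them had -0.24 (limma adjusted p = 0.441), and the dimmer was called at 0.90. Spred1 was less clear. Its brightest probe set read 899, 1131 and 1091 in tumors and 830.2, 665.6 and 831.7 in wild-type samples, above in every tumor, but the log2 fold change of 0.41 (95% interval 0.02 to 0.80) was not called (limma adjusted p = 0.108), and its sign turned under scaling to hybridisation controls (-0.60). All 6 passing Spred1 probe sets had positive fold changes, from 0.41 to 0.98, and 2 of them were called. Spred3 was below 100 on all 6 arrays.

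Dusp6, the cytoplasmic phosphatase that acts on ERK and is a common marker of its activity, rose. It read 902, 983 and 765.2 in tumors, against 348.6, 518.3 and 343.3 in wild-type samples, or 1.09 ± 0.20 in log2 units (SE; limma adjusted p = 0.00887). The lowest tumor lay above the highest wild-type sample. Dusp7, a related cytoplasmic phosphatase, read 311.9, 311.5 and 166.8 in tumors and 152.6, 158.5 and 196.2 in wild-type samples. Here tumors 1 and 2 were above all wild-type samples and tumor 3 lay among them. The log2 fold change of 0.52 was not called (95% interval -0.06 to 1.09; -0.37 under scaling to hybridisation controls), and without tumor replicate 3 it was 0.78 and called (limma adjusted p = 0.0177). Dusp5, a nuclear ERK phosphatase, overlapped between groups at 335.8, 141.5 and 195.5 in tumors and 334.1, 194.6 and 241.4 in wild-type samples (log2 fold change -0.21, 95% interval -0.94 to 0.51). Dusp4, also nuclear, was not tested because only tumors 2 and 3 reached 100. Its signals were 71.4, 116 and 169 in tumors and 62.1, 18.7 and 38.8 in wild-type samples, every tumor above every wild-type sample. Etv4 stayed below 100 on all arrays, at up to 44.7 in tumors and 71.4 in wild-type samples.

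**Figure D2:**
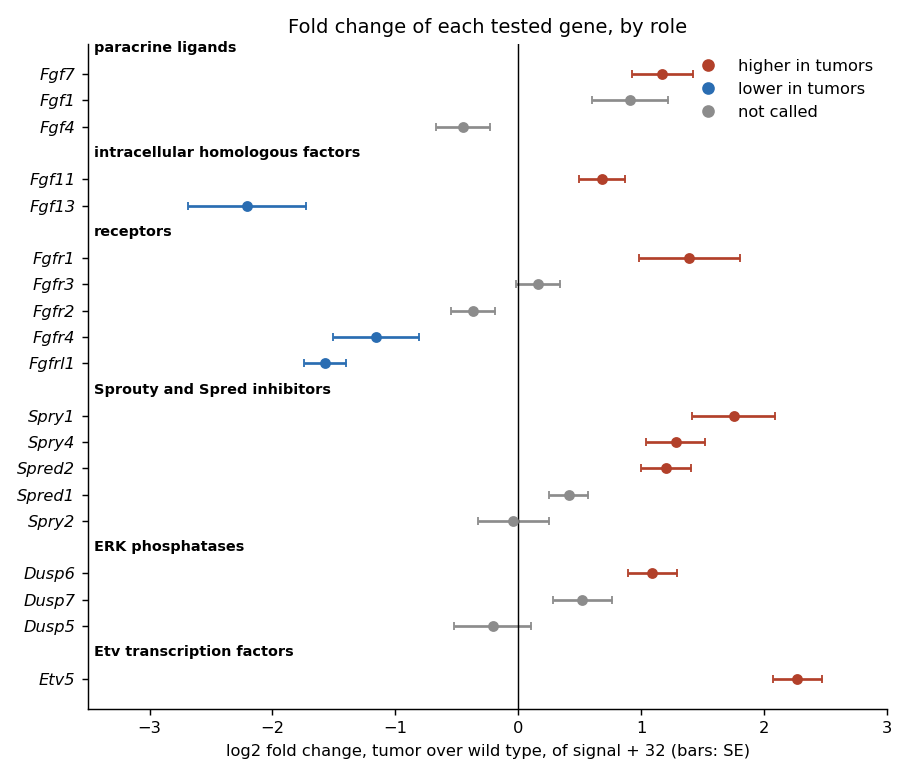
Log2 fold change of signal + 32, tumor over wild type, for the 19 tested genes grouped by role; bars are limma's SE from 3 arrays per group. Red genes were called higher, blue lower and grey were not called: Etv5 lies at 2.27, Spry1 at 1.75 and Dusp6 at 1.09, while Fgf13 lies at -2.21 and Fgfrl1 at -1.57.

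RefSeq promoter windows, 250 bases before to 50 after the gene's start in assembly GRCm38.p6, were held for 29 of the 40 genes and 16 of the 19 tested. The windows of 4 feedback genes are printed because each was called higher, and that of Fgfrl1 because it was called lower. They were chosen after the values were seen. Spry4, also called higher, had no window. Capitals mark 3 motifs searched on both strands: the ETS motif CCGGAA, the AP-1 motif TGANTCA, and GGCGCC, a GC-rich motif of BMP-activated Smads. The windows lie at chr10:99262981-99263280 on the plus strand for Dusp6, chr3:37639697-37639996 (plus) for Spry1, chr11:19924192-19924491 (plus) for Spred2, chr16:22438319-22438618 and chr16:22439521-22439820 (both minus) for Etv5, and chr5:108693979-108694278 (plus) for Fgfrl1.
Dusp6: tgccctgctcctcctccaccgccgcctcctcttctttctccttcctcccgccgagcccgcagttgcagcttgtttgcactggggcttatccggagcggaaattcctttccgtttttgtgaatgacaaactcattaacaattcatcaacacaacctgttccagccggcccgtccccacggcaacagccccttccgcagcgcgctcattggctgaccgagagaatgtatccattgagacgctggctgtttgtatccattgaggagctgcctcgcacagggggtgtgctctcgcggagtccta
Spry1: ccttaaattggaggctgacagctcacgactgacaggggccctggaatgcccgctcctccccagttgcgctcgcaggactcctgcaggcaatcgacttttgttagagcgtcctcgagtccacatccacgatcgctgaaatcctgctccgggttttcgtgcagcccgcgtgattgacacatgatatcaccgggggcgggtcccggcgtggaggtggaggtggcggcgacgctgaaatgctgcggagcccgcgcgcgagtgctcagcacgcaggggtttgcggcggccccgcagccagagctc
Spred2: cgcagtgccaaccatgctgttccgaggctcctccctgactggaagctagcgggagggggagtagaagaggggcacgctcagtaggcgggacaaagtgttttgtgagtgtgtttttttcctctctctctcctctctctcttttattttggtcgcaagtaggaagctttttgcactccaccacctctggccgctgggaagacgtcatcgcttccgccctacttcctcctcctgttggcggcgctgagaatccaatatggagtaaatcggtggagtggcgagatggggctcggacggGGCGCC
Etv5 first window: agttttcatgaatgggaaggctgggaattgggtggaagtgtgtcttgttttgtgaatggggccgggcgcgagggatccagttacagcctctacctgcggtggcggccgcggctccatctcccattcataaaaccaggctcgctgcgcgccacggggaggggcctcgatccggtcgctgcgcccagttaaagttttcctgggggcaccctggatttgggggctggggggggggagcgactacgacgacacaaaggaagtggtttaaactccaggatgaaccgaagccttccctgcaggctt
Etv5 second window: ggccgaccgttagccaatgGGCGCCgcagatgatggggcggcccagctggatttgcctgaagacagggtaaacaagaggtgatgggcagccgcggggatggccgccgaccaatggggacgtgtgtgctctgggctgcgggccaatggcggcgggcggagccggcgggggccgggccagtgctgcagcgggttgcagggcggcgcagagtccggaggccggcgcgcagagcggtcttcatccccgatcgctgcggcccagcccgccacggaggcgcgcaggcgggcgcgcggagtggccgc
Fgfrl1: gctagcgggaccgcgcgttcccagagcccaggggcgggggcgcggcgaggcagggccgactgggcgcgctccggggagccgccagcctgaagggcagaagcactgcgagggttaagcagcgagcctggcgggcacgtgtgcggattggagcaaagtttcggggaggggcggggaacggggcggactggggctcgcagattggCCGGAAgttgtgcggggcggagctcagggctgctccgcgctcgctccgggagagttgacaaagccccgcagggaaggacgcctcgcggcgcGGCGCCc

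The ETS motif was found in 0 of the 7 windows of the 6 genes called higher that had one, in 2 of the 6 windows of the 3 genes called lower, and in 14.9% of all 32851 windows in the table. The Fgfrl1 match lies at position -48 from the gene's start. The AP-1 motif was in 0 of the 7 and 1 of the 6, against 7.81% of all windows. GGCGCC was in 2 of the 7, those of Spred2 and of the second Etv5 start, in 1 of the 6, that of Fgfrl1, and in 11.9% of all. Among the 8 windows of the 7 genes that were tested and not called, the ETS motif was in 1, the AP-1 motif in 0 and GGCGCC in 6.

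The receptor genes changed in different directions. Of the 5 tested, Fgfr1 rose, Fgfrl1 and Fgfr4 fell, and Fgfr2 and Fgfr3 were not called. Among all genes tested, 14.5% were called higher and 12.6% lower. Fgfr4 passed the filter through the wild-type arrays alone and had to be lower to be tested. Fgfrl1 encodes a receptor-like protein that binds FGFs but lacks the kinase domain. It read 1051, 1134 and 811.2 in tumors and 3182, 2820 and 3029 in wild-type samples. The highest tumor was far below the lowest wild-type sample, with means of 999 ± 168 in tumors and 3010 ± 182 in wild-type samples (SD, n = 3 each). Its log2 fold change was -1.57 (SE 0.17, limma adjusted p = 0.00138), and its other probe set, at -1.51, was called lower as well.

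Fgfr1, the receptor gene best known from mesenchymal cells, read 802.7, 1184 and 368.7 in tumors and 205.2, 346.2 and 219.3 in wild-type samples. Tumor 3 lay just above the highest wild-type sample, while tumors 1 and 2 were well clear of it. The log2 fold change was 1.39 (SE 0.41, limma adjusted p = 0.042). That call was lost in 5 of the 6 fits without 1 array (limma adjusted p up to 0.13), the fit without tumor replicate 3 being the exception (0.00661). Neither of its other passing probe sets was called, at 1.46 and 0.72 on the log2 scale.

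Fgfr2, whose isoforms include the receptor of Fgf7, was not called. It read 987.1, 753.6 and 926.4 in tumors and 1251, 951.8 and 1273 in wild-type samples, with tumor 1 above the lowest wild-type sample. The log2 fold change was -0.37 (95% interval -0.79 to 0.06). Fgfr3 overlapped between groups at 113.2, 190.8 and 151.1 in tumors and 127.9, 131.5 and 131.6 in wild-type samples (log2 fold change 0.16, 95% interval -0.27 to 0.59; -0.70 under scaling to hybridisation controls). Fgfr4 was dim. It read 20.86, 90.02 and 68.73 in tumors and 197.9, 106.1 and 194.7 in wild-type samples, so that all tumors lay below 100 and all wild-type samples above. The signal was at least 1.6-fold lower in tumors (limma log2 fold change -1.16, SE 0.35, limma adjusted p = 0.0473). This call was lost without tumor replicate 1 or 3 or wild-type replicate 1 or 3 (limma adjusted p up to 0.146), and the probe set is of a kind whose probes can match other transcripts. The second passing Fgfr4 probe set had -0.29 and was not called, and the brighter one missed the threshold when probe sets were tested singly (limma adjusted p = 0.0508). Dimmer Fgfr4 probe sets below the filter went both ways. From the third to the fifth in brightness, their means were 90.3, 28.82 and 6.581 in tumors and 51.7, 15.1 and 29.63 in wild-type samples.

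**Figure D3:**
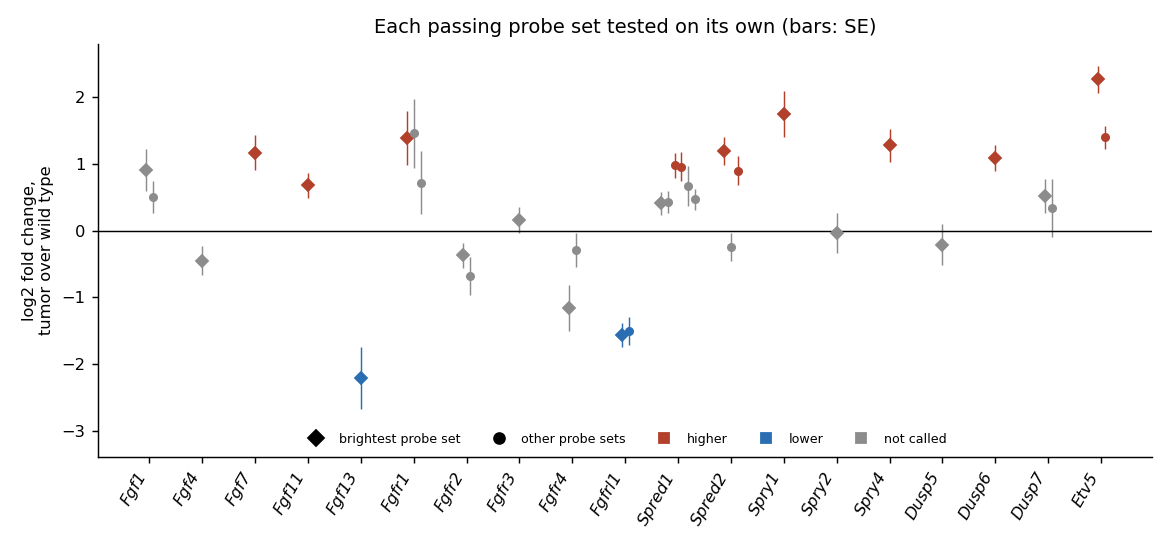
Log2 fold change, tumor over wild type, of each passing probe set of the 19 genes when all 21001 passing probe sets were tested singly; diamonds are the brightest probe set of a gene, circles the others, and bars limma's SE. Red was called higher, blue lower and grey was not called. In 8 of the 9 genes with over 1 passing probe set all of them lie on the same side of 0, and Spred2 is the exception.

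Most ligand genes were too dim to test. Of 15 paracrine ligand genes, 12 missed the filter. Fgf2, Fgf5, Fgf8, Fgf10, Fgf16, Fgf17, Fgf18, Fgf20 and Fgf22 were below 100 on every array, with 88.8 the highest signal among them. Fgf3 and Fgf6 reached 100 on 1 wild-type array each (106 and 108). Fgf8, the oocyte factor, read 4.26, 3.38 and 31.1 in tumors and 11.2, 31.5 and 33.5 in wild-type samples. Fgf9, a ligand of the fetal mouse gonad, read 64.6, 101 and 58.5 in tumors and 104, 75.3 and 69.6 in wild-type samples. Signals this low do not show that the transcripts are absent. The hormone-like ligand genes Fgf15, Fgf21 and Fgf23 were all below 100, with 96 the highest signal.

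The 3 tested paracrine ligands were Fgf7, Fgf1 and Fgf4. Fgf7, a mesenchymal ligand for epithelial Fgfr2, read 117, 129.6 and 125.7 in tumors and 15.4, 63 and 41.6 in wild-type samples. All tumors lay slightly above 100 and all wild-type samples below it, at least 1.24-fold higher in tumors (limma log2 fold change 1.17, SE 0.25, limma adjusted p = 0.0158). Under scaling to hybridisation controls its other probe set became the brighter one and gave -0.70. That other probe set overlapped between groups, with 107.9, 39.51 and 50.15 in tumors and 69.4, 46.8 and 83 in wild-type samples. Fgf1, a ligand for all FGF receptors, read 439.6, 211 and 239 in tumors and 96, 196.6 and 127.7 in wild-type samples. Every tumor was higher, but the log2 fold change of 0.91 (SE 0.31, 95% interval 0.18 to 1.65) was not called (limma adjusted p = 0.0694). Fgf4, known from early embryos, overlapped between groups at 87.49, 73.57 and 132.8 in tumors and 113.9, 142.5 and 175.4 in wild-type samples (log2 fold change -0.45, 95% interval -0.96 to 0.07).

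**Figure D4:**
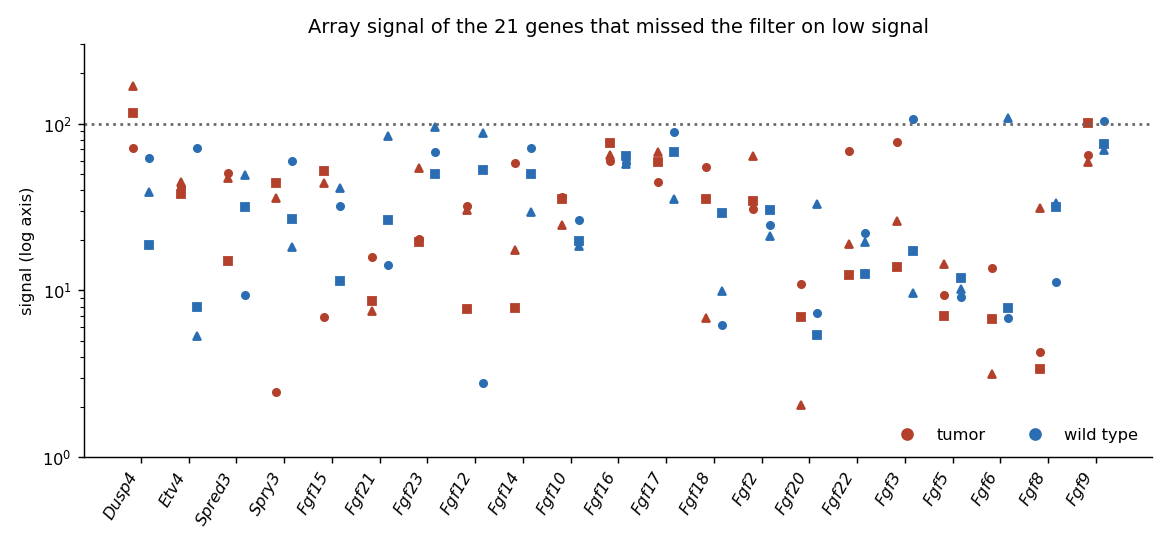
Array signal (log axis, no unit) of the 21 genes that missed the filter, in 3 tumors (red) and 3 wild-type samples (blue); symbols mark the replicate number (circle 1, square 2, triangle 3) and the dotted line a signal of 100. 17 of the 21 stay below 100 on all arrays, and only Dusp4 has 2 tumors above 100, at 116 and 169.

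Fgf11 to Fgf14 encode FGF homologous factors, which stay inside the cell and bind voltage-gated sodium channels rather than receptors. Fgf13 fell. It read 328.5, 317.7 and 69.24 in tumors and 937.4, 1238 and 999 in wild-type samples. Every tumor lay below every wild-type sample, and tumor 3 was the only one under 100. The log2 fold change was -2.21 (SE 0.48, limma adjusted p = 0.0156), and the call was lost without wild-type replicate 2 (limma adjusted p = 0.0531). Fgf11 read 100.4, 148.8 and 111.2 in tumors and 77.1, 47.9 and 62.7 in wild-type samples, at least 1.18-fold higher in tumors (limma log2 fold change 0.68, SE 0.19, limma adjusted p = 0.0344). Its call was kept in 1 of the 6 fits without 1 array, that without tumor replicate 1, with limma adjusted p up to 0.0963 in the others. Fgf12 and Fgf14 were below 100 on all arrays.

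The tumors differed among themselves. Of the 8 genes called higher, 7 had their highest tumor signal in tumor 2, with Etv5 the exception, and 6 had their lowest in tumor 3, all but Fgf7 and Fgf11. Among all 1686 genes called higher, 36.7% were highest in tumor 2 and 45% lowest in tumor 3. The order tumor 2, tumor 1, tumor 3 was shared by Fgfr1, Spry1, Spry4, Spred2 and Dusp6, and by 21.7% of all genes called higher. Summed signals of 10 smooth muscle and pericyte markers were 35310, 37305 and 20178 in tumors 1 to 3 and between 5391 and 6933 in wild-type samples. Those sums share the order, but of the 9 tested markers only Acta2 and Pdgfrb had it, and 5 were highest in tumor 1. The 10 fibroblast markers summed to 60127, 67126 and 43560 in tumors and 13682 to 16735 in wild-type samples, and 5 of the 10, Col1a1, Col1a2, Dcn, Fap and Mfap5, had that order. So had 5 of 8 tested surface epithelium markers, 1 of 9 granulosa, 1 of 10 endothelial and 1 of 10 macrophage markers. These marker counts cover all tested markers, called or not, while the 21.7% covers genes called higher. The order was found in stromal and other lists, and 8 of the 10 endothelial markers were highest in tumor 2. The part of these cells in the values of the FGF genes was not tested, and in bulk tissue fewer cells of a type and less RNA per cell cannot be told apart.

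Marker lists are counted here beside 14.5% higher and 12.6% lower among all genes tested. Called higher were 9 of 9 tested smooth muscle and pericyte markers, 9 of 10 fibroblast, 10 of 10 macrophage and 5 of 10 endothelial markers, with 0 lower in each. These counts include Des, Cspg4, Fap, Ptprc and Flt1, which passed the filter through the tumor arrays alone and had to be higher to be tested, as Gli1 did among the theca markers. Macrophage markers summed to 20992 to 23468 in tumors and 3282 to 4139 in wild-type samples, and endothelial markers to 5659 to 12345 and 2132 to 2735. Of 9 granulosa markers, 1 was higher and 4 lower, their sums being 68256 to 81313 in tumors and 158853 to 181839 in wild-type samples; Inha, which encodes the inhibin alpha subunit, stayed bright in both (mean 32382 in tumors and 42810 in wild-type samples). Of 6 theca and interstitial markers 3 were higher and 1 lower (sums 33009 to 73062 in tumors and 46111 to 54878 in wild-type samples). Among 8 surface epithelium markers 1 was higher and 1 lower (sums 5233 to 6942 in tumors and 4119 to 6197 in wild-type samples). For surface epithelium that is 12.5% each way, near the shares of all genes. Of 5 tested markers of oocytes, the source of ovarian Fgf8, 4 were lower, but Zp1, Zp2 and Zp3 were tested through the wild-type arrays alone and had to be lower. Oocyte markers had sums of 477.7 to 776.4 in tumors and 948.9 to 1673 in wild-type samples, and Bmp15, Nobox and Lhx8 below 100 on every array. The brightest tested marker of each list and the one called with the largest change were Acta2 (log2 fold change 1.84) and Rgs5 (3.73) for smooth muscle and pericytes, Col3a1 (1.39) and Postn (3.57) for fibroblasts, and Lyz1 (2.55) and C1qc (3.50) for macrophages. For endothelium Sox18 (2.81) was both. They were Inha (-0.40, not called) and Inhba (-5.42) for granulosa cells, Hsd3b1 (-0.82, not called) and Cyp17a1 (-4.85) for theca, and Gdf9 (-1.31) and Zp3 (-2.23) for oocytes. For surface epithelium they were Upk3b (-1.05) and Wt1 (2.23). The lymphocyte list had 1 tested marker, Cd8a, not called, and sums of 312.7 to 849.4 in tumors and 287.2 to 581.4 in wild-type samples. Whether these cell types carry the changes of the FGF genes was not tested.

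Other genes of the pathway were taken from 5 lists with 77 tested genes, of which 17 rose, 10 fell and 50 were not called. That is 22.1% higher and 13% lower, beside 14.5% and 12.6% of all genes tested, and nothing particular to these lists is read from their counts. Their median log2 fold change was 0.17. Among genes that help or modify the receptors at the membrane, 1 of 7 rose and 1 fell. Il17rd, also called Sef, a membrane inhibitor of FGF signalling that the pathway induces, read 646.7, 1078 and 1652 in tumors and 205.8, 446.1 and 229.9 in wild-type samples (log2 fold change 1.80, SE 0.39, limma adjusted p = 0.0156). Here tumor 3 was the highest of the tumors, where it was the lowest for Spry1, and the Il17rd call was lost without wild-type replicate 1 or 3 (limma adjusted p up to 0.0609). Cdh2, which encodes N-cadherin, fell by 1.87 on the log2 scale (SE 0.20).

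Genes of heparan sulfate, the co-receptor of FGFs, moved both ways, with 5 of 20 higher, 3 lower, 12 not called and a median of -0.27. Hs6st2 encodes a sulfotransferase that adds sulfate groups to heparan sulfate. It read 2771, 4632 and 5803 in tumors and 335.2, 172.2 and 233.2 in wild-type samples, or 3.97 ± 0.32 in log2 units (SE; limma adjusted p = 0.000573). Ext1, an enzyme that builds the chain, read 1442, 1629 and 1532 in tumors and 11818, 15465 and 12693 in wild-type samples (log2 fold change -3.08, SE 0.16, limma adjusted p = 0.000171). For each of these genes the groups lay far apart, with no overlap.

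Of 20 adaptor and kinase genes of the cascade itself, 2 rose, 3 fell and 15 were not called, with a median of 0.07. Ptpn11, which encodes the phosphatase SHP2, rose by 0.90 on the log2 scale (SE 0.15), a value of -0.14 under scaling to hybridisation controls, and Ksr1, a scaffold of the cascade, fell by 0.95 (SE 0.21), a call lost without wild-type replicate 1 (limma adjusted p = 0.0718). Of 15 other brakes on RAS and ERK, 5 rose, 1 fell and 9 were not called. Dab2ip, an activator of RAS GTP hydrolysis, rose by 1.67 (SE 0.20). Dusp9, another ERK phosphatase, read 23.53, 12.1 and 53.46 in tumors and 157.3, 143.4 and 273.7 in wild-type samples, with every tumor below 100. It passed the filter through the wild-type arrays alone and had to be lower to be tested (limma adjusted p = 0.00617), as did Gpc2 of the heparan sulfate list.

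Transcripts that ERK activity induces did not all go the way of Dusp6 and Etv5: 4 of 15 rose, 2 fell and 9 were not called. Epha4, which encodes an ephrin receptor, was higher by 2.09 on the log2 scale (limma adjusted p = 0.00508, SE 0.33). The immediate-early gene Fos read 1004, 1290 and 2136 in tumors and 5795, 20398 and 5115 in wild-type samples, or -2.56 ± 0.54 in log2 units (SE; limma adjusted p = 0.0147). Ier2, another immediate-early gene, fell by 2.34 (SE 0.43). In both, wild-type replicate 2 was the highest of all arrays.

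**Figure D5:**
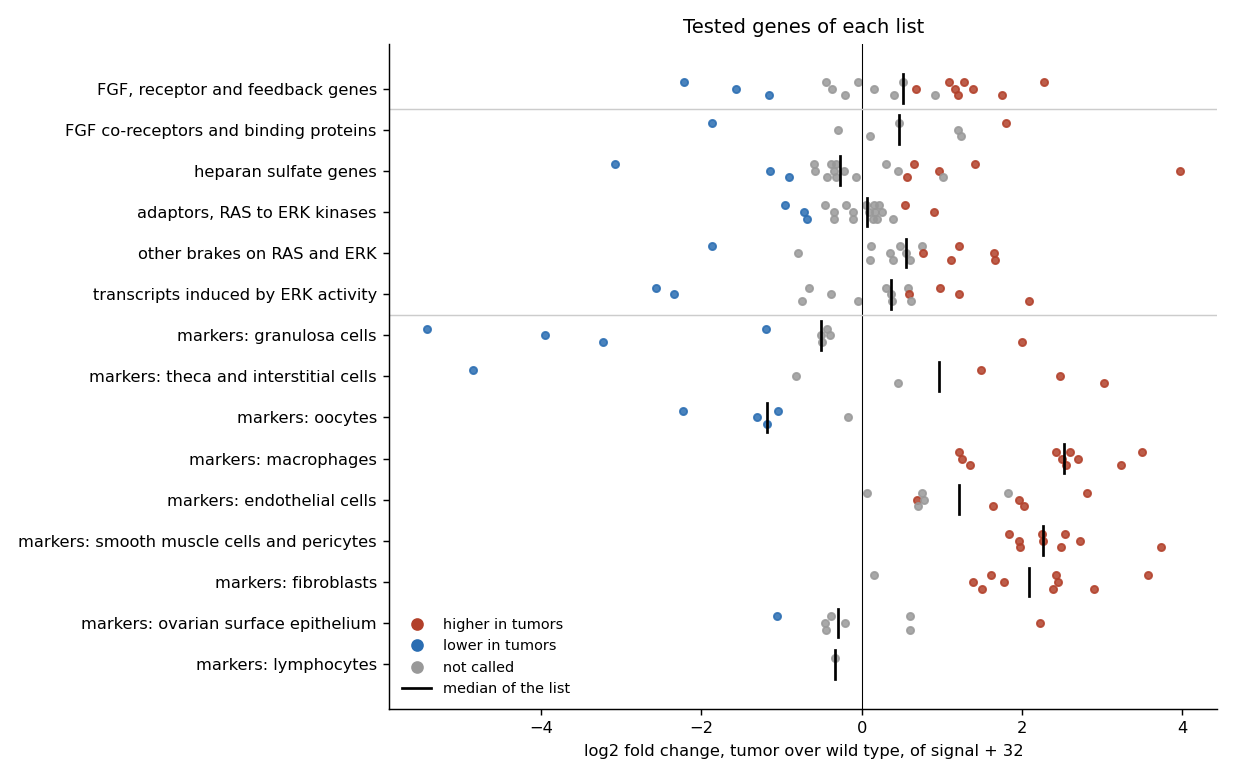
Log2 fold change of signal + 32, tumor over wild type, of every tested gene of the FGF ligand, receptor and feedback genes (top row), of the 5 lists of other pathway genes (middle) and of the 9 cell type marker lists (bottom). Red points were called higher, blue lower, grey were not called, and black ticks are list medians: 0.52 for the FGF genes, 0.07 for adaptors and kinases, 2.26 for smooth muscle and 2.09 for fibroblast markers. The FGF, smooth muscle and fibroblast medians include genes that passed the filter through the arrays of a single group and had to differ to be tested.

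Of the 11 called genes, 7 kept their call in all 6 fits that left out 1 array: Etv5, Spry1, Spry4, Spred2, Dusp6, Fgf7 and Fgfrl1. These fits kept the probe sets and the filter chosen on all 6 arrays. Etv5, Spry4 and Fgf7 had passed that filter through the tumor arrays alone, so their kept calls are given as a description. Bacterial hybridisation controls read higher on tumor arrays, with a mean log2 signal of 12.35 ± 0.439 in tumors and 11.3 ± 0.167 in wild-type samples (SD, n = 3 each). Scaled to them, the median of all genes moved to -1, 376 genes were called higher and 7796 lower, and of the FGF genes Etv5 and Spry1 stayed higher, at 1.40 and 0.83, and Fgfrl1, Fgf13 and Fgfr4 stayed lower. Spry4, Fgfr1, Spred2 and Dusp6 then had 0.50, 0.43, 0.20 and 0.10, which is above that median, and were not called. Scaled to the array median, 1733 genes were called higher and 916 lower, against 1686 and 1467 in the main analysis. The log2 ratio of 3' to 5' control signals, a sign of RNA quality, was 0.808 ± 0.21 in tumors and 0.447 ± 0.193 in wild-type samples for Actb, and -0.365 ± 0.113 and -0.391 ± 0.0653 for Gapdh (SD, n = 3 each), and its part in these results was not tested.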

How the data were processed

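Total RNA of 3 tumors and 3 wild-type granulosa cell samples was hybridised to 6 Affymetrix arrays of 45101 probe sets. The deposited values are linear intensity signals for every probe set. The authors made them with GCOS for tumors and MAS5 for wild-type samples, per the submitters' processing notes. Each array was rescaled to a trimmed mean of 500 (2% left out at each end). Symbols came from GEO's platform annotation: 34945 probe sets named 1 gene, 932 several and 9160 none. Per gene the brightest probe set was kept, then filtered (100 on 3 arrays). The comparison used R 4.3.3 and lmFit and eBayes of limma 3.58.1 (two-sided) on log2(signal + 32), a scale that understates changes of dim genes. The fit was tested on simulated data. "At least" folds set the dimmer group to 100. Tables and figures used Python 3.11.15, pandas 2.3.3 and matplotlib 3.10.9.

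The members, roles and lists were chosen with earlier results of these data known. All members are named; from each list of other pathway genes, the 2 called genes with the largest change and the largest in the other direction; from each marker list, the brightest tested gene and the called gene with the largest change. Alternatives covered pseudocounts, filters, scalings, probe set choice, a replicate block and leaving out arrays. Nothing in the labels says whether the 3 tumors came from separate litters, and wild-type samples are pools of females. The p-values weigh the group difference against the spread between samples within groups, with limma's variance pooled across genes. That spread lies between tumors in the tumor group and between pools of females in the wild-type group. The labels give no pairing of samples by replicate number, and none was used in the main fit. Same-numbered arrays had deviations correlated at -0.0442, 0.028 and 0.0908, and those with different numbers at -0.146 to 0.134. These values cannot exclude a shared batch. Detection calls were not used here.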

Additional observations from a re-analysis of the deposited data

Results flagged for a closer look

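Probe sets that name Etv1 also name the predicted gene Gm5454, so they stood outside the comparison. 1 of the 3 such probe sets had signals of 156.2, 72.35 and 66.86 in tumors and 12.8, 23.8 and 23.3 in wild-type samples, and stands here because every tumor lay above every wild-type sample. Only tumor 1 reached a signal of 100, and the gene behind the signal cannot be told apart. A second had 123.6, 69.42 and 65.3 in tumors and 46.3, 82.2 and 12.1 in wild-type samples, which overlap. Groups of 3 arrays were not examined for a sample far from the others.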

How the results depend on the processing

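The counts of all genes, of FGF genes and of other pathway genes depended on scaling most. Scaled to hybridisation controls, 376 of all genes were called higher and 7796 lower (1686 and 1467 in the main analysis), 2 and 7 FGF genes (8 and 3), 3 and 41 other pathway genes (17 and 10), and 23 markers were lower (10). Scaled to the median, 916 genes were lower. With a signal minimum of 200, which leaves fewer genes tested, 5 FGF genes were higher. Without 1 array, 870 to 1703 genes were higher and 663 to 1406 lower, 6 to 8 FGF genes higher and 2 to 3 lower, 10 to 16 other pathway genes higher and 6 to 10 lower, and 33 to 38 markers higher and 7 to 10 lower. Removing wild-type replicate 1 gave 870 and 663 genes and 10 and 6 other pathway genes; removing wild-type replicate 3 gave 1093 and 882 genes and 10 other pathway genes higher.

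The sign turned under hybridisation control scaling for Fgf7 (-0.70, from its other probe set), Dusp7 (-0.37), Fgfr3 (-0.70), Spred1 (-0.60) and Ptpn11 (-0.14), and for Spry2 under median scaling (0.06) and without tumor replicate 1 (0.15) or wild-type replicates 1 (0.03) or 3 (0.16). Dusp5 had 0.03 without tumor replicate 2, in a range from -0.51 without 1 array, Spry2 a range from -0.30 to 0.16, and 1 Spred2 probe set -0.24. The cause was not tested. Of 177 alternative values of the 11 called genes, 143 kept direction and call, 32 lost the call and 2 turned sign. With a replicate block, 7 FGF genes were higher and 2 lower (Fgf11 and Fgfr4 lost their calls), and 1468 and 1143 of all genes. The labels give no pairing by these numbers. Signals near 100 limit Fgf7, Fgf11, Fgfr4, Spry4 and Dusp4.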

Other observations

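Fgf9 had a second, dimmer probe set, chosen here after its values were seen, which differed from the brighter one. It read 81.76, 160.2 and 96.73 in tumors and 12, 59 and 54.7 in wild-type samples, every tumor above every wild-type sample, while the brighter probe set overlapped between groups. With 1 array at 100 or more it missed the filter and was not tested. A second Spry4 probe set, also chosen after its values were seen and below the filter, read 64.4, 117.7 and 73.78 in tumors and 23.3, 48.6 and 5.9 in wild-type samples, higher in every tumor like the brighter one. The third Etv5 probe set read 238.5, 192.9 and 99.06 in tumors and 78.4, 64 and 32 in wild-type samples, again without overlap. Some dimmer probe sets did not overlap in the other direction, such as the fifth of Fgfr4. It read 9.456, 5.171 and 5.115 in tumors and 29.1, 29.3 and 30.5 in wild-type samples. The second probe sets of Fgf13 and Fgf11, also below the filter, overlapped between groups. The second Fgf13 probe set read 86.62, 69.2 and 45.11 in tumors and 71.3, 121.6 and 143.2 in wild-type samples. The second Fgf11 probe set read 14.57, 10.81 and 4.277 in tumors and 15.7, 9.5 and 9.6 in wild-type samples.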
